A study of Mus musculus with 2 samples.

Results

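Subunits of the GABA-A receptor and the β subunit of the glycine receptor were followed through the glia and neurons of the mouse cortex in a control and a white matter injury (WMI) library. The 7 genes were taken by symbol from the gene list of the count tables, as *Gabra2*, *Gabra3*, *Gabra4*, *Gabra5*, *Gabrb1*, *Gabrb2* and *Glrb*, out of 55450 genes in all. Each symbol was found once, and the rule that picks them uses the symbols and no measured value.

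GABA-A receptors are chloride channels assembled from several subunits around a pore, in most cases α and β subunits with a further kind such as γ or δ, and the α subunit sets much of how the receptor responds to GABA and to drugs. Glycine receptors belong to the same family of channels, and their β subunit, encoded by *Glrb*, binds gephyrin, the scaffold protein of inhibitory synapses. Neurons use these receptors for fast inhibition, oligodendrocyte precursor cells (OPCs) receive GABAergic input from neurons, and astrocytes also respond to GABA through GABA-A receptors.

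The study compared the cortex of C57BL/6 mice after ligation of the right common carotid artery and exposure to hypoxia with the cortex of the same side of control mice. The results of the study, however, describe cells from a control and a WMI side. According to the sample labels the surgery took place on postnatal day 7 with 1 h of hypoxia, tissue was collected on postnatal day 14 from mice 2 weeks old, and nuclei were loaded, whereas the methods of the study describe an earlier surgery and collection, a longer hypoxia and enzymatically dissociated cells. The labels of both libraries carry the same surgical text, and the treatment field alone marks 1 as control and 1 as WMI. With 1 library per condition no difference between them has a replicate check, and the number of mice behind each library was not given in the labels. The study describes replicates in each group, whereas 1 library per group was analysed here.

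The unit throughout was the UMI (unique molecular identifier), which counts each captured RNA molecule once. The deposited tables held 10288 control and 8354 WMI barcodes, of which 8755 and 7571 were kept, at medians of 4429 and 5084 UMIs per cell, and 36 barcode sequences occurred in both libraries. Levels are given in CPM, the UMIs of a gene per 1000000 UMIs of the cells of a class, with an exact Poisson 95% interval in brackets, and differences as log2 ratios of levels with a conditional binomial 95% interval. These intervals cover counting error only. Cells were grouped into classes named after their markers, and 5 clusters that could not be named, with 40.8% of the control and 9.09% of the WMI cells, were left out. The glial names rested on 10 of 10 markers in the OPC-like and in the astrocyte-like cluster, 8 of 10 in the pre-OL-like, 10 of 10 in the mature OL-like and 9 of 9 in the microglia-like cluster. The OL stages used below were then named by sub-cluster under a different rule. Under it the OPC-like sub-clusters each reached 9 OPC markers and the mature OL-like one 10 of its own. The pre-OL-like sub-clusters 1, 2 and 6 reached 7, 6 and 8 pre-OL markers. Sub-clusters 1 and 2 also reached 3 and 4 OPC markers, and sub-cluster 6 also reached 4 mature OL markers. A further microglia-like cluster, with 3 control and 643 WMI cells, was kept apart and is not part of the microglia-like class used here. *Xist*, which marks female cells, was found in 0.0571% of the control and 63.2% of the WMI cells, so that the sexes were not matched. The median mitochondrial share per cell was 0.0606% in control and 0.447% in WMI, and striatal projection neuron-like cells numbered 2 and 153, so that RNA quality and the tissue sampled cannot be told apart from the condition.

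Neuronal RNA was present in every glial class. The 15 neuronal markers summed to between 11047 and 21585 CPM in the neuron classes that both libraries held, and still to 8906 CPM in the control and 6119 CPM in the WMI microglia-like cells. Microglia should lack the receptors described here, and their level of each subunit was therefore taken as the background. It was 216 and 186 CPM in control and WMI for *Gabra2*, 56.1 and 54.4 for *Gabra3*, 94.0 and 83.0 for *Gabra4*, 31.6 and 45.3 for *Gabra5*, 644 and 503 for *Gabrb1*, 279 and 186 for *Gabrb2* and 87.0 and 57.5 CPM for *Glrb*, and glial values are to be read against these. The WMI microglia-like cluster kept apart, at a median of 1737 UMIs, was higher for every member. In the same order it held 294, 81.8, 120, 68.3, 830, 298 and 113 CPM, so the WMI background depends on the microglia chosen. Fewer captured molecules of a gene per cell and a larger share of other RNA cannot be told apart on the CPM scale, so UMIs per cell are also given where a result turns on them. Microglia-like cells were shallow, at a median of 3130 UMIs in both libraries. A class at or under the background in CPM can therefore exceed it in UMIs per cell. Which scale fits free RNA was not tested.

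The members lie on 5 chromosomes (coordinates in GRCm38). *Gabra2* (5:70957597-71095849, minus strand), *Gabra4* (5:71569749-71658308, minus strand) and *Gabrb1* (5:71658113-72149037, plus strand) are neighbours, and *Gabra4* and *Gabrb1* overlap head to head by 196 bases on opposite strands. *Gabra3* is at X:72432681-72656848, *Gabra5* at 7:57407672-57510059, *Gabrb2* at 11:42419757-42629028 and *Glrb* at 3:80843599-80913660. Genes on the opposite strand also overlap *Gabra3*, *Gabra5* and *Gabrb1*, and whether the counting used the strand was not given in the sources used here. Below are the 250 bases before the annotated start of *Glrb*, the member whose highest class was a stage of the oligodendrocyte (OL) lineage, and of *Gabra2*, the member most often past 1.5-fold between the libraries. Both are from RefSeq (GRCm38.p6), chr3:80913661-80913910 and chr5:71095850-71096099, read on the minus strand, with capitals for matches to the motifs searched.
*Glrb* promoter: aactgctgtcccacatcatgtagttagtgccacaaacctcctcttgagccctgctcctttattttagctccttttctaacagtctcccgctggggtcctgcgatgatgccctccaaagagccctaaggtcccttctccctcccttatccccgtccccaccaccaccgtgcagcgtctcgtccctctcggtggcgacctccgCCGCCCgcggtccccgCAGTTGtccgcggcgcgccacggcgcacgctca
*Gabra2* promoter: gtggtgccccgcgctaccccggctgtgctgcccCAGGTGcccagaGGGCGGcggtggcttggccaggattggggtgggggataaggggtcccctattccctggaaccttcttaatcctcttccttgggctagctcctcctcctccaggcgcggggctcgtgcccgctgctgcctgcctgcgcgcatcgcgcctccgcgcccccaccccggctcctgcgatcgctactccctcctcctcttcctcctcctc
The *Glrb* stretch has 62.4% G and C with 20 CG pairs, and the *Gabra2* stretch 70% with 18, against medians of 52.4% and 6 over 32851 promoters of the same length. Each holds 1 match to CANNTG, the E-box that basic helix-loop-helix factors such as OLIG2 can bind, which 66.2% of those promoters hold, and 1 to GGGCGG, the GC box, which 32.7% hold, counting both strands. ACAAAG and ACAATG, core letters of SOX sites, and TATAAA, the TATA box, had 0 matches in either, with 16.5%, 10.7% and 12.4% of all promoters holding them. A match to these letters is a description and not a binding site.

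Each subunit had its own order of cell classes on the CPM scale. *Gabra2* and *Gabrb1* were high in astrocyte-like cells, and *Glrb* was highest in premyelinating OL-like (pre-OL-like) cells. *Gabra3*, *Gabra4*, *Gabra5* and *Gabrb2* were highest in neurons, apart from *Gabra3*, which reached the same level in OPC-like cells. Most neuron classes were deeper than astrocyte-like and pre-OL-like cells, so that an order in UMIs per cell can differ from these orders in CPM. Neighbours in these orders mostly had overlapping intervals, so that the top and bottom of an order carry more weight than the ranks between. Each library held 21 classes with at least 50 cells, of which 15 were neurons, and 19 classes reached that number in both libraries. Mature OL-like and Oprk1 Nr4a2 excitatory cells did so in control alone. Striatal projection neuron-like cells and the microglia-like cluster kept apart did so in WMI alone, so the orders of the libraries cover slightly different classes.

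**Figure D1:**
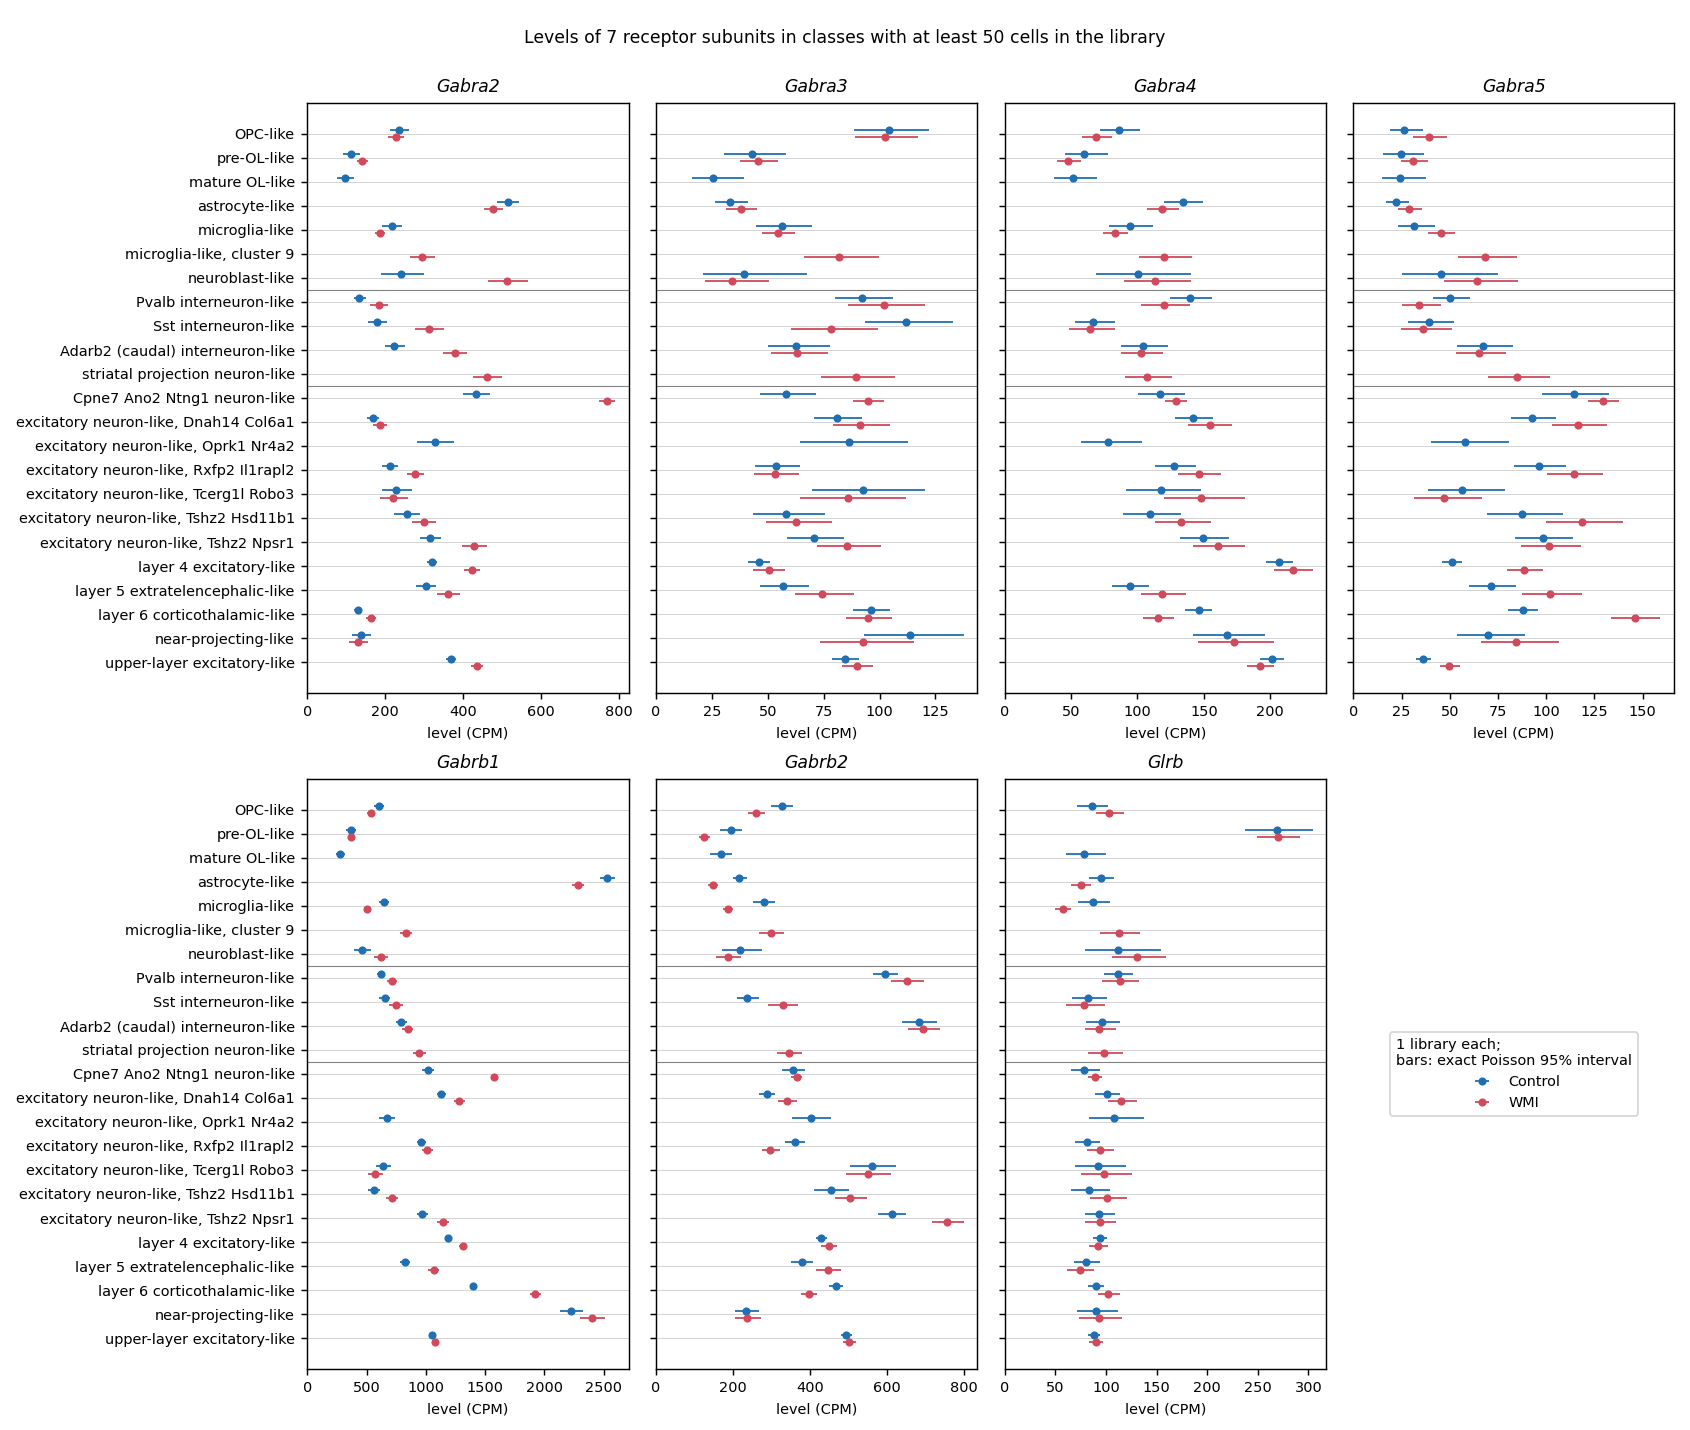
Level of each subunit (CPM, linear axis of its own for each gene) in every class with at least 50 cells in the library, for the Control and the WMI library (1 library each), with exact Poisson 95% intervals as bars. *Glrb* stands at 269 and 270 CPM in pre-OL-like cells and at no more than 131 CPM in any other class, while *Gabrb1* is highest in astrocyte-like and near-projecting-like cells.

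Among the α subunits, *Gabra2*, which is known for its place at synapses on the first stretch of the axon, reached 514 CPM (486 to 544) in control and 477 CPM (453 to 501) in WMI astrocyte-like cells. In neurons it ran from 129 CPM in layer 6 corticothalamic-like cells to 433 CPM in the Cpne7 Ano2 Ntng1 neuron-like class of the control library, and from 129 CPM in near-projecting-like cells to 768 CPM in the Cpne7 Ano2 Ntng1 class of the WMI library. The Cpne7 Ano2 Ntng1 class was the highest neuron class in both, and its interval met that of no other neuron class. Per cell, astrocyte-like cells held 2.66 UMIs of *Gabra2* in control and 2.44 in WMI. In control, layer 6 corticothalamic-like cells held 1.27 and Cpne7 Ano2 Ntng1 cells 5.02. In WMI, near-projecting-like cells held 1.41 and Cpne7 Ano2 Ntng1 cells 9.76. *Gabra2* was lowest of all in pre-OL-like and mature OL-like cells of the control library, at 111 and 96.5 CPM, below the microglia-like background of 216 CPM. Per cell these classes held 0.667 and 0.823 UMIs, against 0.713 in microglia-like cells.

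*Gabra3*, an α subunit that is prominent early in cortical development, spanned a narrower range. It stood at 104 CPM (88.7 to 122) in control and 102 CPM (89.0 to 117) in WMI OPC-like cells, beside 114 CPM in the highest control neuron class, the near-projecting-like cells, and 102 CPM in the highest WMI neuron class, the Pvalb interneuron-like cells. Layer 4 excitatory-like cells were the lowest neurons in both libraries, at 46.0 and 50.4 CPM, which did not exceed the background of 56.1 and 54.4 CPM. Per cell they held 0.533 and 0.547 UMIs, against 0.185 and 0.190 in microglia-like cells.

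*Gabra4*, found mostly in receptors outside synapses, was highest in layer 4 excitatory-like cells, at 207 and 217 CPM in control and WMI, and next in upper-layer excitatory-like cells, at 201 and 193 CPM, with intervals that met. Sst interneuron-like cells were the lowest neurons in both libraries, at 66.8 and 64.1 CPM, below the background of 94.0 and 83.0 CPM. Per cell they held 0.7 and 0.625 UMIs of *Gabra4*, against 0.310 and 0.289 in microglia-like cells. *Gabra5*, the α subunit of tonic inhibition, peaked in the Cpne7 Ano2 Ntng1 class of the control library at 114 CPM and in layer 6 corticothalamic-like cells of the WMI library at 146 CPM. In glia *Gabra5* lay between 22.3 and 39.0 CPM in the OPC-like, pre-OL-like and astrocyte-like cells of both libraries, under the background of 31.6 and 45.3 CPM, so that on this scale it was not detectable above free RNA there. Per cell, these classes held 0.143, 0.147 and 0.115 UMIs in control, against 0.104 in microglia-like cells. In WMI they held 0.184, 0.170 and 0.148, against 0.158.

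The β subunits, which form the GABA binding site together with α, differed from each other in where they were high. *Gabrb1* was at 2528 CPM (2466 to 2592) in control and 2283 CPM (2231 to 2335) in WMI astrocyte-like cells, and at 2228 and 2404 CPM in near-projecting-like neurons. The next class, the layer 6 corticothalamic-like cells, stood apart from both at 1400 and 1923 CPM. Per cell, astrocyte-like cells held 13.1 and 11.7 UMIs, near-projecting-like cells 25.3 and 26.3, and layer 6 corticothalamic-like cells 13.8 and 19.8. The lowest neuron classes were the Tshz2 Hsd11b1 excitatory class of the control library, at 559 CPM, and the Tcerg1l Robo3 class of the WMI library, at 572 CPM, near the background of 644 and 503 CPM. Per cell these classes held 6.31 and 6.22 UMIs, against 2.12 and 1.75 in microglia-like cells.

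*Gabrb2*, the β subunit of many adult cortical receptors, was instead lowest in near-projecting-like cells among neurons, at 234 and 237 CPM. Its highest neuron classes were Adarb2 interneuron-like cells in the control library, at 683 CPM, and the Tshz2 Npsr1 excitatory class in the WMI library, at 756 CPM, with Pvalb interneuron-like cells the third in both at 594 and 651 CPM. Astrocyte-like cells held 216 and 147 CPM of *Gabrb2*, below the background of 279 and 186 CPM. Per cell they held 1.12 and 0.756 UMIs, against 0.921 and 0.650 in microglia-like cells.

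*Glrb* was nearly even across neurons. Its highest neuron class was 1.42-fold above its lowest in the control library (112 CPM in Pvalb interneuron-like against 78.8 CPM in Cpne7 Ano2 Ntng1 cells) and 1.55-fold in the WMI library, where the range was 74.4 to 115 CPM. The control background of 87.0 CPM lay inside its range, and the WMI background of 57.5 CPM below its own. Per cell, the Pvalb interneuron-like and Cpne7 Ano2 Ntng1 cells of the control library held 1.20 and 0.915 UMIs, against 0.287 in microglia-like cells. In the WMI library the Dnah14 Col6a1 and layer 5 extratelencephalic-like cells, highest and lowest in CPM, held 1.35 and 1.11, against 0.201. On the CPM scale pre-OL-like cells were the one class whose *Glrb* interval lay apart from all others, in both libraries. Per cell the gap to the deeper neurons was smaller. Pre-OL-like cells held 1.62 and 1.47 UMIs in control and WMI. Control Dnah14 Col6a1 cells held 1.25, and WMI cells of the excitatory class Rxfp2 Il1rapl2 held 1.40.

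The first comparison followed the stages of the OL lineage inside each library, from OPC-like through pre-OL-like to mature OL-like cells. *Glrb* was higher in pre-OL-like than in OPC-like cells and low again in mature OL-like cells, whereas *Gabra2*, *Gabra3*, *Gabrb1* and *Gabrb2* were lower in pre-OL-like and mature OL-like than in OPC-like cells on the CPM scale. The lineage held 279 and 435 OPC-like, 156 and 448 pre-OL-like and 96 and 43 mature OL-like cells in control and WMI, and the last of these was under the 50 cells set for a ratio between libraries.

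*Glrb* stood at 85.8 CPM (71.7 to 102) in control OPC-like, 269 CPM (237 to 304) in pre-OL-like and 78.2 CPM (60.2 to 99.8) in mature OL-like cells. In the WMI library the same stages were at 103 CPM (89.9 to 118), 270 CPM (250 to 291) and 92.6 CPM (65.9 to 127). Pre-OL-like cells were the high stage in both libraries, and the intervals of the other stages did not reach theirs. From OPC-like to pre-OL-like cells the log2 ratio of *Glrb* was 1.65 (1.34 to 1.97) in control and 1.38 (1.16 to 1.61) in WMI, and from pre-OL-like to mature OL-like cells −1.78 (−2.20 to −1.38) and −1.54 (−2.05 to −1.08).

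Counted per cell, *Glrb* gave 1.62 and 1.47 UMIs in control and WMI pre-OL-like cells against 0.287 and 0.201 in microglia-like cells. After every cell was thinned to 1000 UMIs, 24.4% (17.9 to 31.9) of control and 21% (17.3 to 25.1) of WMI pre-OL-like cells held a *Glrb* UMI, beside 9.95% and 5.90% of microglia-like cells. Without thinning the shares were 65.4% and 58.7% against 24.3% and 17.0%, at median depths of 5357 and 4821.5 UMIs in pre-OL-like and 3130 UMIs in microglia-like cells of either library. The level, the UMIs per cell and both shares all placed pre-OL-like cells above the background.

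Sub-clusters of the lineage located the high point. *Glrb* was at 83.6 and 101 CPM (control and WMI) in the main OPC-like sub-cluster, 194 and 164 CPM in the pre-OL-like sub-cluster with *Gpr17*, a receptor of OLs yet to myelinate, among its leading genes, and 375 and 356 CPM in the one that held *Enpp6*, a marker of OLs that have just begun to differentiate. The step between these pre-OL-like sub-clusters was 0.96 (0.54 to 1.39) on the log2 scale in control and 1.11 (0.85 to 1.39) in WMI. Another pre-OL-like sub-cluster of 18 control and 20 WMI cells was at 112 and 155 CPM, and mature OL-like cells were lower than the *Enpp6* sub-cluster by log2 ratios of −2.26 and −1.94.

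**Figure D2:**
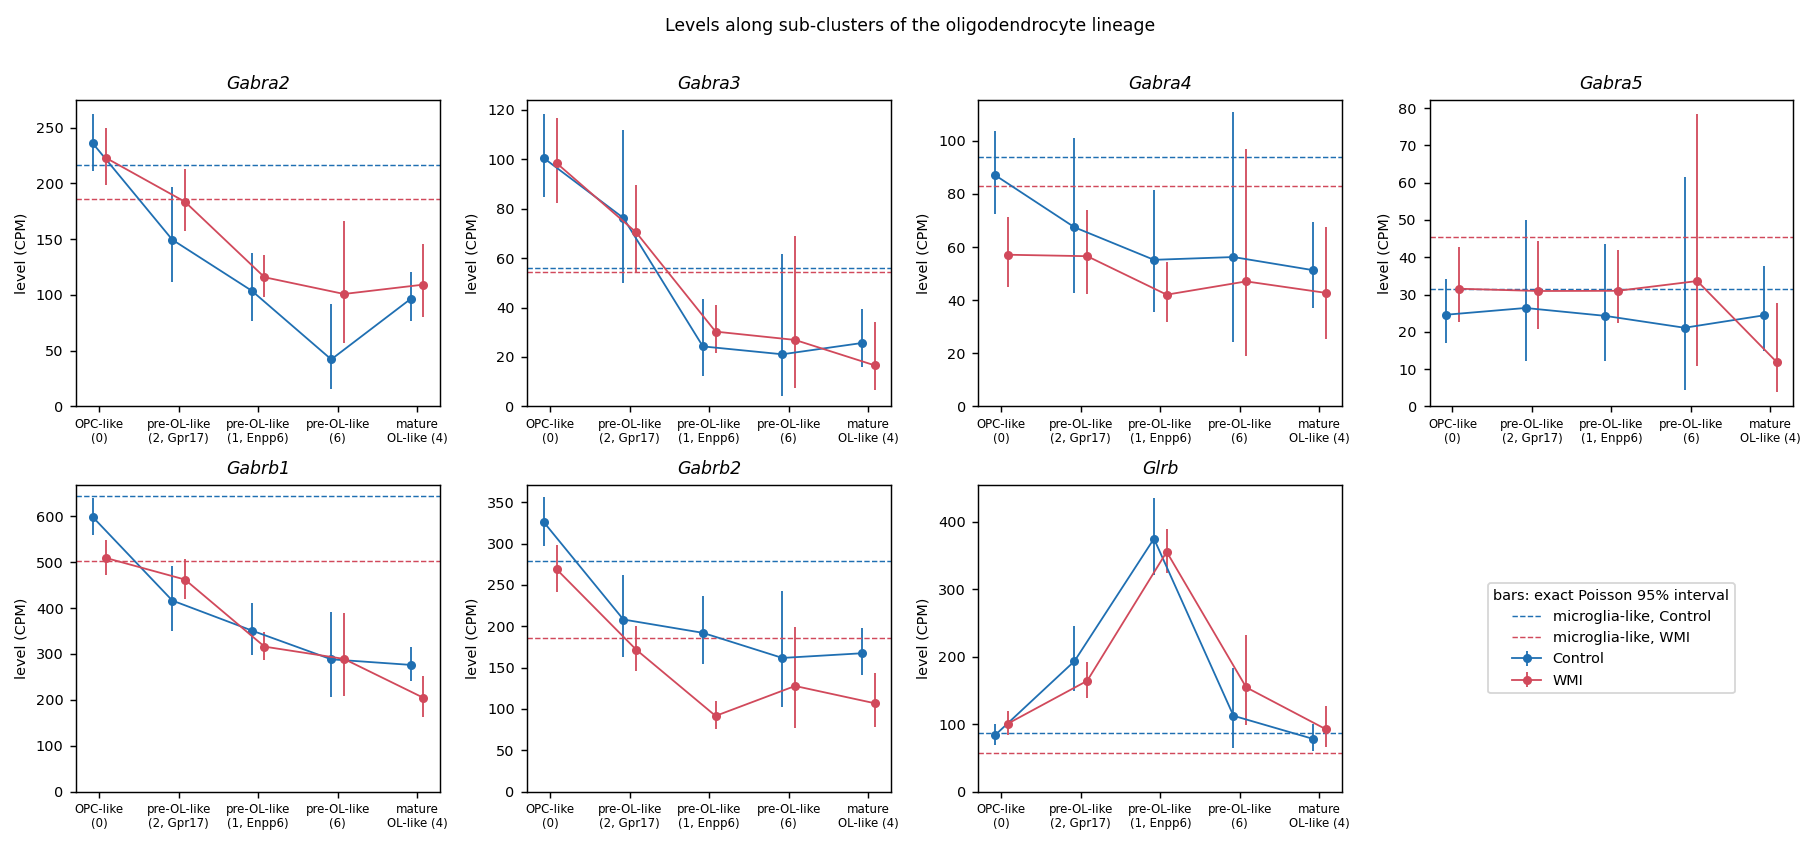
Level of each subunit (CPM) in the OPC-like sub-cluster 0, the pre-OL-like sub-clusters 2, 1 and 6 and the mature OL-like sub-cluster 4, for both libraries, with exact Poisson 95% intervals and with the microglia-like level of the same library as a dashed line. *Glrb* peaks in sub-cluster 1 at 375 and 356 CPM, and *Gabra3* is under its dashed lines from sub-cluster 1 on.

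*Gabra3* had few UMIs along the lineage, under the 200 set for a count past 1.5-fold in the control library. Its level was 104 and 102 CPM in control and WMI OPC-like cells, 42.7 and 45.5 CPM in pre-OL-like cells and 25.6 and 16.6 CPM in mature OL-like cells. From OPC-like to mature OL-like cells its log2 ratio was −2.02 (−2.76 to −1.36) in control and −2.62 (−3.96 to −1.55) in WMI, the last on 7 UMIs in mature OL-like cells. Between the *Gpr17* and *Enpp6* sub-clusters, where *Glrb* was higher in the second, *Gabra3* went the other way, from 76.2 to 24.3 CPM in control and from 70.4 to 30.3 CPM in WMI.

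*Gabra2*, *Gabrb1* and *Gabrb2* were lower in pre-OL-like than in OPC-like cells, with log2 ratios of −1.08, −0.72 and −0.75 in control and −0.68, −0.53 and −1.06 in WMI. *Gabra4* was at −0.52 in both libraries, and *Gabra5* at −0.10 and −0.33 with intervals that held 0 in both. The summed neuronal markers also stood lower at the later stages, at 8217 and 7205 CPM in OPC-like, 6210 and 5484 CPM in pre-OL-like and 4337 and 2693 CPM in mature OL-like cells of control and WMI. *Slc17a7* alone, a marker of excitatory neurons, stood at 130, 136 and 117 CPM along these stages in control. In WMI it was at 158, 113 and 99.7 CPM. The part of neuronal RNA in these differences was not tested.

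Past 1.5-fold from OPC-like to pre-OL-like cells, among genes with at least 200 UMIs over both classes, were 4 of the 4 members measured in the control library, with *Glrb* higher and *Gabra2*, *Gabrb1* and *Gabrb2* lower, beside 37.4% of all 2108 genes. In the WMI library 4 of 6 members were, with *Glrb* higher and *Gabra2*, *Gabra3* and *Gabrb2* lower, beside 30.2% of 3793 genes. The median log2 ratio of the members was −0.74 in control and −0.61 in WMI, and that of all genes −0.07 and 0.02. From OPC-like to mature OL-like cells, 3 of 3 members measured in the control library were lower past 1.5-fold, beside 34.7% of 2027 genes, at a median of −1.13 against −0.19. Mature OL-like cells were deeper, at medians of 8118.5 and 8602 UMIs in control and WMI against 4955 and 4314 in OPC-like cells, and per cell these differences were smaller or gone. *Gabra2* gave 1.28 UMIs per OPC-like and 0.823 per mature OL-like cell in control, but 1.07 in each in WMI, *Gabrb1* 3.27 and 2.35 in control and 2.53 and 2.00 in WMI, and *Gabrb2* 1.77 and 1.43 in control and 1.23 and 1.05 in WMI. From pre-OL-like to mature OL-like cells of the control library these subunits had more UMIs per cell, from 0.667, 2.19 and 1.16 to 0.823, 2.35 and 1.43, whereas *Glrb* had fewer, from 1.62 to 0.667. From pre-OL-like to mature OL-like cells 1 of 3 was, *Glrb*, beside 24.8% of 1498 genes, at medians of −0.40 and −0.11.

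Against the microglia-like background on the CPM scale, OPC-like cells were past 1.5-fold for *Gabra3* alone in both libraries, with log2 ratios of 0.89 (0.50 to 1.30) in control and 0.91 (0.63 to 1.20) in WMI. *Glrb* was at −0.02 in control and 0.85 in WMI, where its background was lower. The ratios of *Gabra2* were 0.12 and 0.28, of *Gabrb1* −0.10 and 0.09, of *Gabrb2* 0.22 and 0.48, and those of *Gabra4* and *Gabra5* were below 0 in both libraries. On this measure 1 of 6 members was past 1.5-fold upward in control, beside 18.5% of genes, and 2 of 7 in WMI, beside 16.1%. The microglia-like cluster kept apart held 81.8 CPM of *Gabra3* and 113 CPM of *Glrb*, beside 102 and 103 CPM in WMI OPC-like cells. A *Gabra3* UMI was found in 9.32% and 11.3% of OPC-like cells after thinning, against 5.56% and 5.26% of microglia-like cells, and in 37.3% and 32.2% of OPC-like cells without thinning. Per cell, OPC-like cells also held more of other members than the shallower microglia-like cells. In control these were 1.28 against 0.713 UMIs of *Gabra2*, 3.27 against 2.12 of *Gabrb1* and 1.77 against 0.921 of *Gabrb2*. In WMI they were 1.07 against 0.649, 2.53 against 1.75 and 1.23 against 0.650.

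Astrocyte-like cells carried a different pair. *Gabrb1* was 3.93-fold and 4.54-fold above the microglia-like level in control and WMI, with log2 ratios of 1.97 (1.87 to 2.07) and 2.18 (2.11 to 2.26), and *Gabra2* was at 1.25 (1.07 to 1.44) and 1.36 (1.23 to 1.48). *Gabrb1* gave 13.1 and 11.7 UMIs per astrocyte-like cell against 2.12 and 1.75 per microglia-like cell, at median depths of 4855 and 4664 UMIs against 3130 UMIs. After thinning, 88.3% and 79.5% of astrocyte-like cells held a *Gabrb1* UMI against 50% and 40.7% of microglia-like cells, and 34.6% and 35.0% held a *Gabra2* UMI against 17.6% and 17.1%. Without thinning the astrocyte-like shares were 99.6% and 97.6% for *Gabrb1* and 79.2% and 75.1% for *Gabra2*.

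The other members were within 1.5-fold of the background or under it in astrocyte-like cells on the CPM scale. Per cell, *Gabra4* gave 0.692 and 0.607 UMIs there against 0.310 and 0.289 in microglia-like cells, and *Glrb* 0.491 and 0.385 against 0.287 and 0.201. The log2 ratio to microglia-like cells was 0.51 in both libraries for *Gabra4*, 0.13 and 0.38 for *Glrb*, −0.37 and −0.34 for *Gabrb2*, −0.50 and −0.65 for *Gabra5* and −0.75 and −0.52 for *Gabra3*. Higher past 1.5-fold were 2 of 5 members in control, beside 20.8% of genes, and 2 of 7 in WMI, beside 17.7%, while *Gabra5* was lower in WMI, beside 29.4%. The members' median was 0.51 and 0.38, and that of all genes −0.22 and −0.26.

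**Figure D3:**
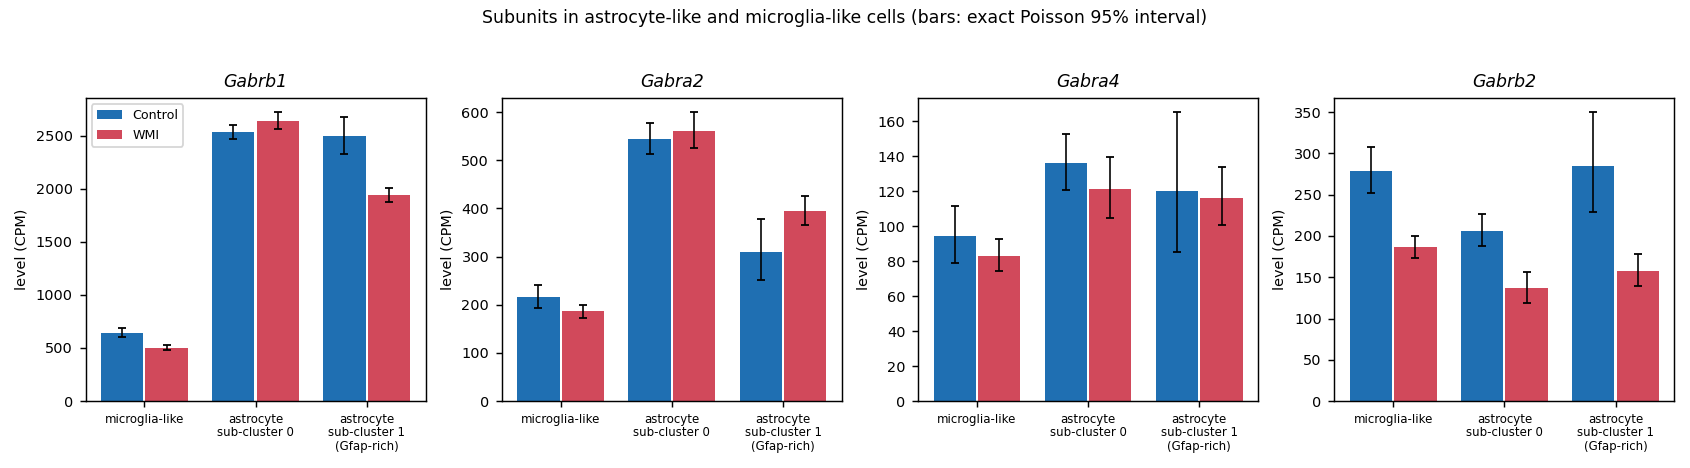
Level of *Gabrb1*, *Gabra2*, *Gabra4* and *Gabrb2* (CPM, bars from 0 with exact Poisson 95% intervals) in microglia-like cells and in astrocyte-like sub-clusters 0 and 1 of the Control and WMI libraries. *Gabrb1* is at 2533 and 2638 CPM in sub-cluster 0 and at 2495 and 1940 CPM in sub-cluster 1.

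The astrocyte-like cells fell into sub-clusters that differed in *Gfap*, the filament gene of reactive astrocytes, and in their share of each library. Sub-cluster 0 held 405 control and 280 WMI cells with 34.5 and 194 CPM of *Gfap*, and sub-cluster 1 held 72 and 354 cells with 247 and 1268 CPM. *Gabra2* was lower in sub-cluster 1, at 310 and 394 CPM, than in sub-cluster 0, at 545 and 562 CPM. *Gabrb1* was alike in both sub-clusters of the control library, at 2495 and 2533 CPM, and lower in sub-cluster 1 of the WMI library, at 1940 CPM against 2638 CPM.

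The comparison of WMI with control asked whether injury goes with a different level of these subunits within a cell class. OPC-like cells had none of the 6 members with at least 200 UMIs past 1.5-fold, beside 4.5% of 3003 genes, and the members' median log2 ratio was −0.11 against 0.02 over all genes. *Gabra2* was at −0.05 (−0.26 to 0.15), *Gabra3*, which is X-linked, at −0.03 (−0.33 to 0.28), or 0.52 in male cells alone, and *Glrb* at 0.27 (−0.05 to 0.59). *Gabrb1* was lower by a log2 ratio of −0.17 (−0.30 to −0.04) and *Gabrb2* by −0.32 (−0.50 to −0.15), which became 0.66 once the microglia-like level of each library was subtracted, and *Gabra4* was at −0.32 (−0.67 to 0.04). Without OPC-like sub-cluster 3, to which 24 control but 209 WMI cells belonged, the ratio of *Gabra4* was −0.61. In male cells alone it was −0.89, and both of these values were past 1.5-fold.

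In pre-OL-like cells *Glrb* was close to level between the libraries, at 269 and 270 CPM with a log2 ratio of 0.00 (−0.21 to 0.22), and *Gabrb1* at 365 and 370 CPM with 0.02 (−0.16 to 0.20). *Gabra2* was at 111 and 141 CPM with 0.34 (0.02 to 0.67), and in male cells alone its ratio was −0.01. *Gabrb2* was the 1 of 4 members past 1.5-fold, beside 6.94% of 2896 genes. It stood at 193 CPM (166 to 224) in control and 125 CPM (111 to 139) in WMI, a log2 ratio of −0.63 (−0.90 to −0.36). Both values lay below the background of 279 and 186 CPM, which was itself lower in WMI, and *Gabra2* and *Gabrb1* were also below theirs in CPM. Per cell, *Gabrb2* gave 1.16 and 0.679 UMIs in pre-OL-like cells, against 0.921 and 0.650 in microglia-like cells. Split by sub-cluster, the ratio was −1.07 in the *Enpp6* sub-cluster, from 192 to 91.5 CPM, and −0.28 in the *Gpr17* sub-cluster, from 208 to 172 CPM.

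*Gabrb2* was also lower in WMI in the other glial classes. Its log2 ratio was −0.55 (−0.73 to −0.37) in astrocyte-like cells, from 216 to 147 CPM, and −0.58 (−0.76 to −0.40) in microglia-like cells, from 279 to 186 CPM, which is the background class. In neurons it was within 1.5-fold in every class. With the microglia-like level of each library subtracted, it was higher in WMI past 1.5-fold in some neuron classes. These were Cpne7 Ano2 Ntng1 (1.21), layer 5 extratelencephalic-like (1.40), layer 4 excitatory-like (0.81), Tshz2 Hsd11b1 (0.87), Tshz2 Npsr1 (0.78) and Dnah14 Col6a1 (4.24). The other neuron classes with such a value lay between 0.16 and 0.56. In Dnah14 Col6a1 cells the control level of 287 CPM was close to the 279 CPM subtracted, so little remained there to divide by. The WMI microglia-like cluster kept apart held 298 CPM, against the 186 CPM subtracted, so these values depend on the microglia chosen. In glia the summed neuronal markers were also lower in WMI, from 8906 to 6119 CPM in microglia-like and from 6063 to 4680 CPM in astrocyte-like cells. In pre-OL-like cells the sum went from 6210 to 5484 CPM. *Slc17a7* alone went from 211 to 175, 146 to 117 and 136 to 113 CPM in these classes, but from 130 to 158 CPM in OPC-like cells. The part of neuronal RNA in the lower *Gabrb2* was not tested.

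*Glrb* was lower in WMI microglia-like cells as well, at 57.5 CPM against 87.0 CPM, a log2 ratio of −0.60 (−0.92 to −0.27), 1 of 7 members past 1.5-fold beside 22.4% of 4982 genes in that class. In astrocyte-like cells with both sub-clusters pooled none of 6 members was past 1.5-fold, beside 14.5% of 4739 genes. The members' median was −0.16 against 0.08 over all genes. Pooled *Gabrb1* there was at −0.15 (−0.20 to −0.10), which came apart into 0.06 in sub-cluster 0 and −0.36 in the *Gfap*-rich sub-cluster 1. Pooled *Gabra2* was at −0.11, whereas the sub-clusters were at 0.04 and 0.35, both above 0. *Gabrb2*, pooled at −0.55, was past 1.5-fold within each, at −0.59 in sub-cluster 0 and −0.85 in sub-cluster 1. The share of all genes past 1.5-fold within the sub-clusters was not counted. Sub-cluster 1, the one with less *Gabra2*, held 72 of the 477 control and 354 of the 634 WMI astrocyte-like cells.

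Among classes with at least 200 UMIs, *Gabra2*, *Gabra5*, *Gabrb1* and *Gabra3* had an interval above 0 more often than below 0 in WMI against control. *Gabrb1* had a median log2 ratio of 0.15 over 19 classes, with 11 above and 3 below 0. *Gabra3* had a median of 0.14 over 12 classes, with 2 above and 0 below. How often all genes had such intervals was not counted. *Gabra2* had a median log2 ratio of 0.33 over 19 classes, with an interval above 0 in 12 and below 0 in 2, and *Gabra5* a median of 0.45 over the 10 classes with at least 200 UMIs, with 7 above and 0 below. Of the 9 classes under that number, *Gabra5* had an interval below 0 in Pvalb interneuron-like cells, at −0.55 (−1.08 to −0.05). The 2 classes with lower *Gabra2* were astrocyte-like and microglia-like cells. *Glrb* had a median of 0.02 over 14 classes, with 0 intervals above and 2 below 0. No member was past 1.5-fold in 9 neuron classes, beside 5.24% of genes in upper-layer excitatory-like, 6.09% in layer 5 extratelencephalic-like, 3.7% in near-projecting-like and 5.07% in Pvalb interneuron-like cells, and beside 4.87%, 6.43%, 4.85%, 4.98% and 6.28% in the excitatory classes Dnah14 Col6a1, Rxfp2 Il1rapl2, Tcerg1l Robo3, Tshz2 Hsd11b1 and Tshz2 Npsr1.

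The largest *Gabra2* difference was in neuroblast-like cells, at 240 CPM (190 to 299) in control and 513 CPM (462 to 567) in WMI, a log2 ratio of 1.10 (0.74 to 1.47). It was the 1 of 3 members past 1.5-fold there, beside 18% of 899 genes, and at a clustering resolution of 0.4 its ratio was 0.58, inside 1.5-fold. Neuronal marker RNA in this class was at 9285 CPM in control and 12099 CPM in WMI, and its part was not tested. These were 62 control and 174 WMI cells, in which *Gad1* and *Gad2*, the enzymes that make GABA, were lower in WMI at −0.95 and −0.87. *Gabra2* was also past 1.5-fold in Sst interneuron-like cells, from 179 to 311 CPM (log2 ratio 0.80, 0.53 to 1.07), 1 of 3 members beside 6.41% of 1622 genes, and in Adarb2 interneuron-like cells, from 223 to 378 CPM (0.76, 0.55 to 0.96), 1 of 5 members beside 4.89% of 2352 genes. In Pvalb interneuron-like cells it was at 0.46 and within 1.5-fold. Male cells alone were too few to compare in the neuroblast-like, Sst and Adarb2 classes, so the part of sex in these *Gabra2* ratios was not tested.

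The Cpne7 Ano2 Ntng1 class had 3 of 7 members higher past 1.5-fold, beside 7.72% of 5727 genes in that direction. *Gabra2* was at 433 and 768 CPM in control and WMI (log2 ratio 0.83, 0.71 to 0.95), *Gabra3* at 58.1 and 94.8 CPM (0.71, 0.38 to 1.04) and *Gabrb1* at 1014 and 1576 CPM (0.64, 0.56 to 0.71). The *Gabrb1* ratio was inside 1.5-fold at a clustering resolution of 0.4 (0.55), and that of *Gabra3* under 2 of 11 alternatives (lowest 0.57). *Gabra4*, *Gabra5*, *Gabrb2* and *Glrb* were between 0.03 and 0.18. The class held 129 control and 598 WMI cells, and 13.1% of its genes were past 1.5-fold in either direction. In male cells alone the ratio of *Gabra3* was 0.72.

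*Gabra5* was past 1.5-fold in layer 4 excitatory-like cells, from 51.2 CPM (46.2 to 56.5) to 88.5 CPM (79.5 to 98.3), a log2 ratio of 0.79 (0.58 to 1.00), 1 of 7 members beside 5.22% of 6317 genes, and in layer 6 corticothalamic-like cells, from 87.9 to 146 CPM (0.73, 0.55 to 0.91), 1 of 7 members beside 7.09% of 5597 genes. Upper-layer excitatory-like cells were at 0.46 (0.24 to 0.68). *Gabra5* was also at 0.52 (0.04 to 1.03) in microglia-like cells, from 31.6 to 45.3 CPM, so that its background was higher in WMI too. *Gabra4* was lower in layer 6 corticothalamic-like cells, at −0.34 (−0.52 to −0.17), and higher in layer 5 extratelencephalic-like cells, at 0.33 (0.04 to 0.63).

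**Figure D4:**
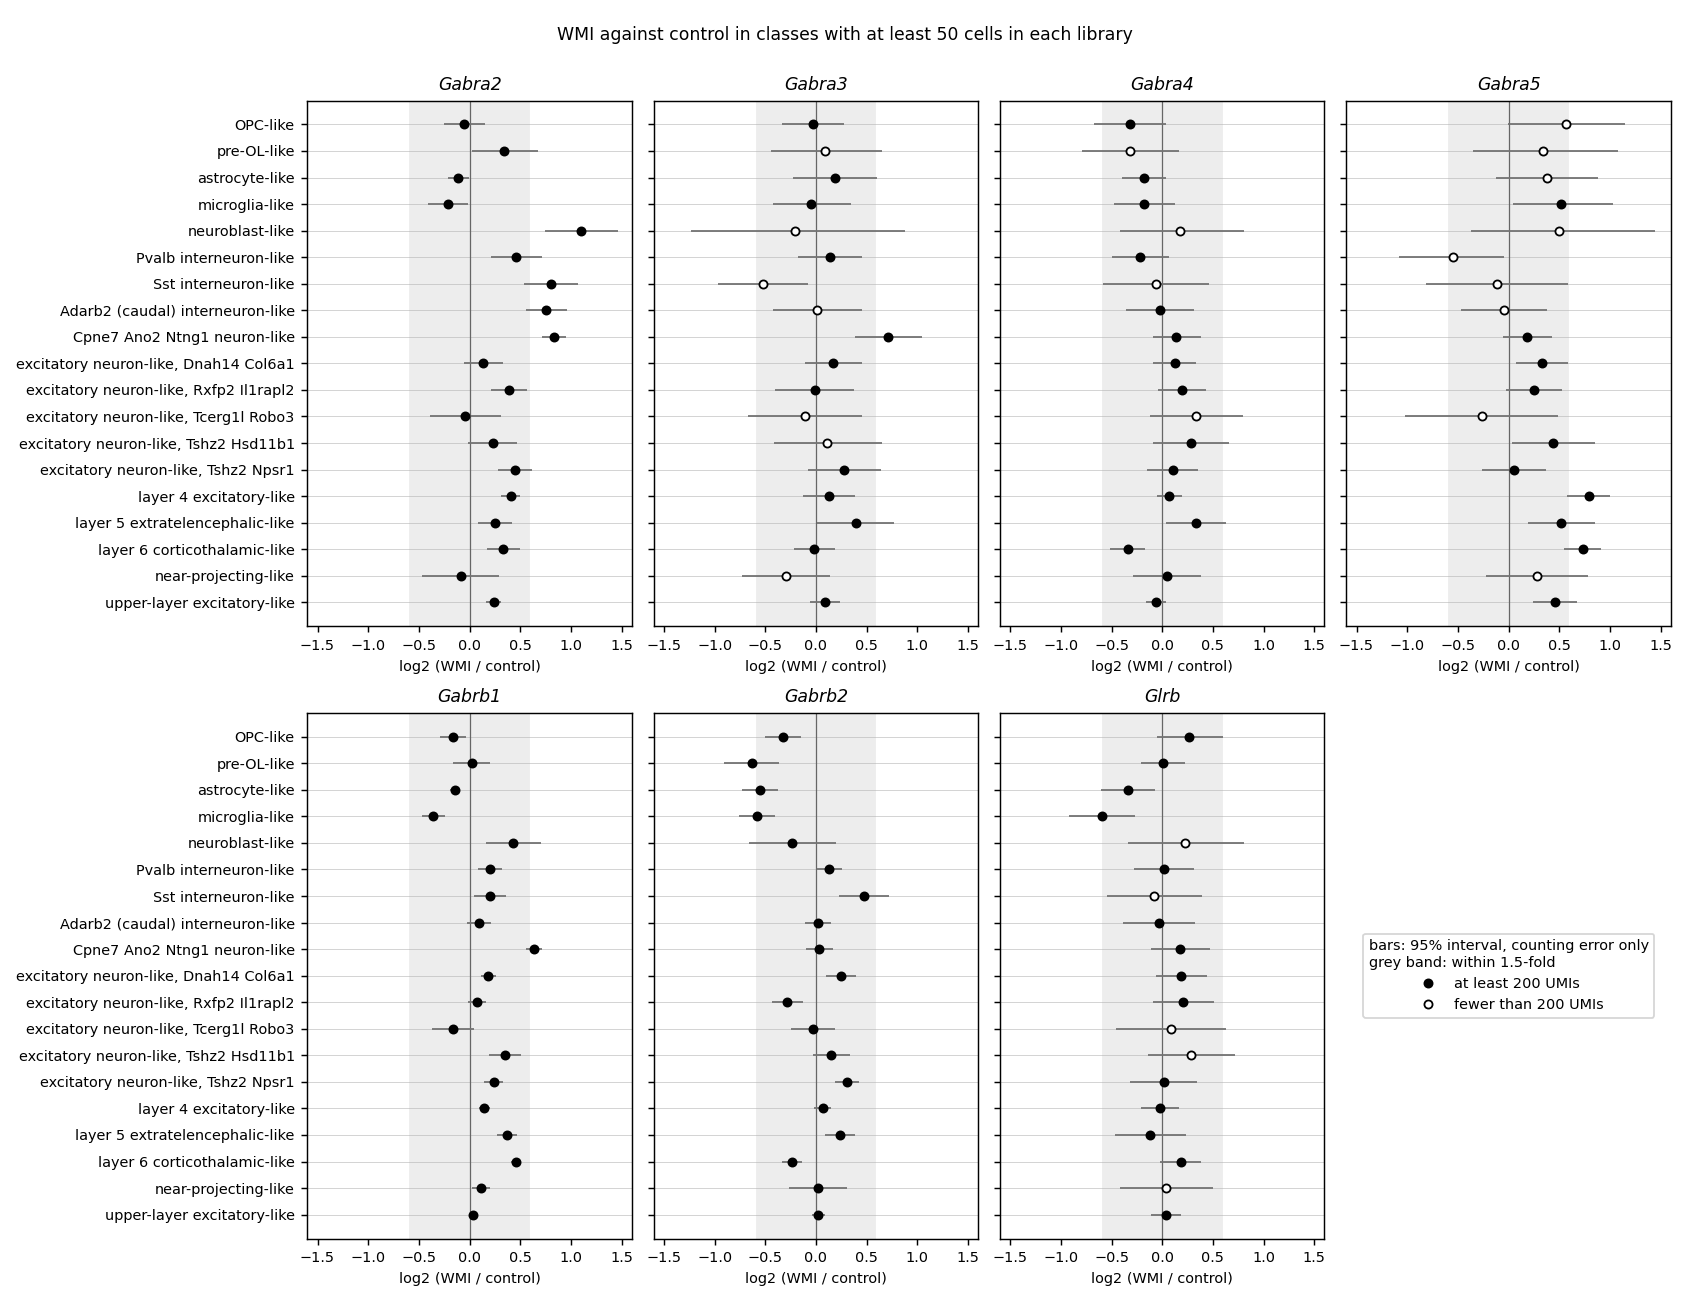
Log2 ratio of the WMI to the Control level for each subunit in the 19 classes with at least 50 cells in each library, with 95% intervals for counting error and a grey band for differences within 1.5-fold. *Gabra2* reaches 1.10 in neuroblast-like cells, and *Gabrb2* is at −0.63 in pre-OL-like cells, with filled points for at least 200 UMIs.

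Partner genes of these receptors were read from a list of 30 genes in 6 groups. Of the other GABA-A subunits, *Gabrg3*, a γ subunit, was highest in Pvalb interneuron-like cells of the control library at 3587 CPM (3509 to 3666), *Gabrg1*, the γ subunit of glia, in WMI astrocyte-like cells at 64.7 CPM (56.2 to 74.0), and *Gabrd*, the δ subunit, in control Pvalb interneuron-like cells at 64.1 CPM. The glycine receptor α subunits, which form the glycine binding site with *Glrb*, were neuronal where they could be counted. *Glra3* peaked in the Tcerg1l Robo3 excitatory class at 200 CPM (167 to 237) and *Glra2* in near-projecting-like cells at 188 CPM (160 to 219), both in the WMI library, while *Glra1* had 7 UMIs and *Glra4* 1 UMI in their highest classes. *Glra2* was at 10.7 and 13.5 CPM in control and WMI pre-OL-like cells and *Glra3* at 9.61 and 9.83 CPM, where *Glrb* was highest, and neither exceeded the microglia-like level of 19.6 and 18.7 CPM for *Glra2* and 12.6 and 16.4 CPM for *Glra3*.

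*Gphn*, which encodes gephyrin, was highest in control astrocyte-like cells at 859 CPM (823 to 897). *Gad2* and *Gad1* were highest in Adarb2 interneuron-like cells at 510 and 315 CPM, and the GABA transporter *Slc6a11* in astrocyte-like cells at 240 CPM. The chloride importer *Slc12a2*, which helps to set whether GABA excites or inhibits, was highest in mature OL-like cells at 487 CPM (441 to 538), and the exporter *Slc12a5* in the Cpne7 Ano2 Ntng1 class at 130 CPM. The GABA-B subunit *Gabbr1* was highest in astrocyte-like cells at 287 CPM and *Gabbr2* in Pvalb interneuron-like cells at 708 CPM.

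From OPC-like to pre-OL-like cells, 7 genes of the list in control and 10 in WMI had enough UMIs. *Slc12a2* was higher and *Gabbr2* lower past 1.5-fold in both, with *Abat*, the enzyme that breaks down GABA, also higher in WMI, and the list's medians were −0.15 and 0.05. Of all genes, 37.4% in control and 30.2% in WMI were past 1.5-fold at this step. Between WMI and control none of the 9 genes measured in OPC-like or in pre-OL-like cells was past 1.5-fold, beside 4.5% and 6.94% of all genes. In astrocyte-like cells *Gabbr2* was lower in WMI past 1.5-fold, at −0.80 (−0.92 to −0.69), beside 4.98% of all genes lower, with a list median of −0.17 against 0.08. Within sub-clusters 0 and 1 *Gabbr2* was at −0.30 and −0.50, both inside 1.5-fold. *Glra2* was higher in WMI in the Cpne7 Ano2 Ntng1 class, from 10.7 to 51.8 CPM at 2.28 (1.56 to 3.10), where *Gabra2*, *Gabra3* and *Gabrb1* were also higher, and in near-projecting-like cells, from 101 to 188 CPM at 0.90 (0.52 to 1.28). Further genes of the list past 1.5-fold were *Gad1* and *Gad2* in neuroblast-like cells, *Iqsec3*, lower in the Tshz2 Npsr1 class at −0.69, *Slc6a11*, lower in layer 6 corticothalamic-like cells at −0.70, and in microglia-like cells *Gabrg3*, lower at −0.61, and *Slc12a2*, higher at 0.63. Of all genes, 13.1% were past 1.5-fold in the Cpne7 Ano2 Ntng1 class, 3.7% in near-projecting-like and 18% in neuroblast-like cells. The shares were 6.28% in the Tshz2 Npsr1 class, 7.09% in layer 6 corticothalamic-like and 22.4% in microglia-like cells.

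Genes with the most similar pattern to each member were ranked by Pearson correlation of log2(CPM + 1) over 42 points from 23 classes, which share 2 libraries and their free RNA, among 12365 genes. *Gabra2* was closest to *Eda* (r = 0.75), *Gabra3* to *Ica1* (0.77), *Gabra4* to *Dclk1* (0.78), *Gabra5* to *Camkv* (0.85) and *Celf4* (0.84), *Gabrb1* to *Fmn2* (0.79), *Gabrb2* to *Fam49a* (0.86) and *Glrb* to *Camsap2* (0.82), *Rapgef1* (0.77) and *Fyn* (0.77). *Fyn*, a kinase of OL differentiation, was among the markers used to name pre-OL-like cells. Between members the highest correlation was that of the overlapping neighbours *Gabra4* and *Gabrb1*, at 0.68.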

How the data were processed

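UMI counts per gene and barcode were analysed for 2 10x Genomics libraries, 1 Control and 1 WMI, grouped by the treatment field of the labels. The deposited values are whole counts that the authors made with Cell Ranger 6.1.1 per the file headers, without normalization. Per the labels they used Seurat and mm9, whereas all 55450 gene identifiers matched GENCODE M21 on GRCm38. Library totals were 66470806 and 60568639 UMIs.

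Barcodes with at least 1000 UMIs, 500 genes and at most 10% mitochondrial UMIs were kept (748 Control and 241 WMI removed), and 785 and 542 predicted doublets were removed (0.8% per 1000 barcodes), which left 16326 cells. Counts were integrated and clustered with Seurat 5.3.0 in R 4.3.3 with Matrix 1.6.5 (2000 variable features, 30 dimensions, resolution 0.8) into 31 clusters. The 152 features left out of clustering included the members, their partner genes, cell-cycle and sex-linked genes. Clusters were named from marker lists when at least 60% of a list and 3 markers were detected, by thresholds set after looking at the clusters, and 26 were named. A marker counted at 25% of its highest cluster, in 10% of cells and 3-fold above the lower quartile. OL-lineage cells were clustered again at 0.8 and astrocyte-like cells at 0.2. An OL sub-cluster not led by cycling markers took the stage with the largest share of its markers at 50% or more of their highest sub-cluster.

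The level of a gene is its UMIs over all UMIs of a class in CPM, with an exact Poisson interval. Ratios have conditional binomial and shares, after thinning each cell to 1000 UMIs, exact Clopper-Pearson intervals, all at 95% and for counting error only. No cell was shallower than the thinning depth. No test was run, since cells of 1 library are not replicates. Instead, genes with at least 200 UMIs over both sides of a comparison, in classes with at least 50 cells on each side, were counted past 1.5-fold. The ratios and intervals were tested on simulated data. Sums, ratios and intervals were computed in Python 3.11.15 (pandas 2.3.3, NumPy 2.4.6, SciPy 1.17.1), with figures by matplotlib 3.10.9.

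The genes named are the 7 members, up to 4 genes of each of 6 partner groups (30 genes) taken by their highest level, those of the list past 1.5-fold, and the genes most correlated with each member among genes with at least 500 UMIs. Some genes that met these rules are not reported here. The members and lists were chosen with earlier results of these data known. *Gfap*, *Xist*, *Enpp6* and *Gpr17* were named to describe cells. Alternatives changed doublet removal, depth, resolution, integration, sex of the cells, weighting of clusters and cells, scaling, the background, the UMI minimum and the fold, and 1 chosen after seeing the data left out an OPC-like sub-cluster.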

Additional observations from a re-analysis of the deposited data

Results flagged for a closer look

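Some subunits lay higher in WMI than in control in one cell class and lower in another, with intervals for counting error on either side of 0. With 1 library per condition the difference between the classes was not tested. For *Gabra2* the log2 ratio was 1.10 in neuroblast-like cells and −0.22 in microglia-like cells, with the interval above 0 in 12 and below 0 in 2 of 19 classes. *Gabra4* was at 0.33 in layer 5 extratelencephalic-like and −0.34 in layer 6 corticothalamic-like cells, the only 2 of 15 classes whose interval left out 0. *Gabrb1* was at 0.64 in the Cpne7 Ano2 Ntng1 neuron-like class and −0.36 in microglia-like cells, with 11 classes above and 3 below 0 of 19. *Gabrb2* was at 0.47 in Sst interneuron-like and −0.63 in pre-OL-like cells, with 5 above and 6 below 0 of 19. In 2 of these 4 subunits, *Gabra2* and *Gabrb1*, the low end was the microglia-like class that served as background, in which neuronal marker RNA was at 8906 CPM in control and 6119 CPM in WMI.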

How the results depend on the processing

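Of 1103 log2 ratios of WMI to control recomputed under an alternative, 1015 stayed inside the counting interval of the reported value and 88 moved out of it. These moves were not spread evenly. With the microglia-like level subtracted 60 of 75 moved, in male cells alone 17 of 58, and under any other alternative at most 3. The 10 differences of members past 1.5-fold kept their sign in every alternative run. For *Gabra2* in neuroblast-like, Sst and Adarb2 cells these alternatives did not include male cells alone, which were too few to compare. Subtraction of the microglia-like level could not be run for *Gabra2* in Sst cells, where the control level lay under it. The same holds for *Gabrb2* in pre-OL-like cells, where both libraries lay under it, and for *Glrb* in the microglia-like cells themselves. The 10 differences also stayed past 1.5-fold, except *Gabra2* in neuroblast-like cells (0.58) and *Gabrb1* in the Cpne7 Ano2 Ntng1 class (0.55) at a clustering resolution of 0.4, *Gabra3* in that class under 2 of 11 alternatives (lowest 0.57, from the mean of per-cell levels) and *Glrb* in microglia-like cells under 3 of 10. Other ratios passed 1.5-fold only under an alternative, mostly with the microglia-like level subtracted. In male cells these were *Gabra4* in OPC-like (−0.89) and layer 6 corticothalamic-like cells (−0.77) and *Gabrb2* in astrocyte-like cells (−0.62). They also included *Gabra3* in Dnah14 Col6a1 (0.65) and *Gabra5* in upper-layer excitatory-like cells (0.66). *Gabrb2* in astrocyte-like cells was at −0.64 with doublets kept and −0.72 with clusters weighted equally. Of the 52 ratios whose interval left out 0, the sign changed in 8 of 532 recomputations. With the microglia-like level subtracted, *Gabrb2* in OPC-like cells went from −0.32 to 0.66, *Glrb* in astrocyte-like cells from −0.34 to 1.14, *Gabrb2* in the Rxfp2 Il1rapl2 class from −0.28 to 0.43 and in layer 6 corticothalamic-like cells from −0.24 to 0.16, and *Gabra5* in upper-layer excitatory-like cells from 0.46 to −0.04. In male cells *Gabra2* went from 0.33 to −0.15 in layer 6 corticothalamic-like and from 0.34 to −0.01 in pre-OL-like cells, and with clusters weighted equally from −0.11 to 0.20 in astrocyte-like cells. The median of the members was −0.082 in layer 6 corticothalamic-like cells in male cells only (reported 0.18) and 0.50 in upper-layer excitatory-like cells with the microglia-like level subtracted (reported 0.04). *Gabrb1* in astrocyte-like over microglia-like cells was 1.82 in Control and 2.08 in WMI with predicted doublets kept, and 2.09 in WMI with libraries merged without integration. The number of genes past the fold with at least 50 UMIs a gene was 996 in OPC-like, 1183 in pre-OL-like, 2225 in astrocyte-like, 2861 in microglia-like and 2322 in Cpne7 Ano2 Ntng1 neuron-like cells, and at 2-fold 34, 52, 200, 371 and 241, against 135, 201, 688, 1115 and 750. The cause of these changes was not tested. Of the ratios between classes of 1 library, 172 of 175 recomputed values stayed inside the interval, those of *Glrb* along the OL stages included. Shares rest on the thinning, and 539 of 588 moved without it or at 2000 UMIs. No paired analysis was possible because each condition had 1 library. Depth limited *Gabra3* and *Gabra5* most, with 12 and 10 of 19 classes reaching 200 UMIs, and mature OL-like cells, with 43 in WMI, gave no ratio between libraries.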
